A study of Mus musculus with 12 samples.

Results

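Among genes that regulatory T (Treg) cells typically express, 9 that are neither costimulatory nor cytokine receptors were followed across the whole series: Gpr83, Izumo1r, Axl, Cd83, Sdc4, Epcam, Capg, Swap70 and Plagl1. They are 9 of the 25189 genes in the count table, chosen by their levels, which had been seen to be lower in Foxp3-deficient than in WT cells. Their change between those groups is therefore a description without a test, and so is their change between double-deficient and WT cells, which shares the WT libraries. All 9 had enough reads to be among the 13196 genes tested.

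RNA was sequenced in 3 groups of 4 libraries, all from Treg cells taken from the spleen of female mice aged 4 weeks and gated on CD4 with a red (RFP) or a yellow (YFP) reporter and sorted a second time. Double-deficient cells used the Foxp3∆EGFPiCre allele, which drives a green reporter and Cre recombinase and gives no working Foxp3, and were Rictor∆/∆, with Rictor deleted as well. Foxp3-deficient cells used the same Foxp3∆EGFPiCre allele with Rictor left intact, and WT cells used the Foxp3RFP allele, a working Foxp3 marked in red. The mice are given as Foxp3∆EGFPiCre/RFP R26YFP and as Foxp3∆EGFPiCre/+ Rictor∆/∆ R26YFP, so every donor was a female heterozygous at X-linked Foxp3 that still had cells with a working allele, and every donor carried the R26YFP reporter. Cre came from the Foxp3 locus, and genotype and reporter colour cannot be told apart as far as the labels tell. The mouse genotypes given also differ in the second Foxp3 allele, RFP or +. Loss of Rictor therefore cannot be told apart from the donor line in double-deficient against Foxp3-deficient cells. The mouse behind each library is not stated, and p-values here reflect only how much the samples of a group differ.

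Treg cells are CD4 T cells that hold immune responses in check. Foxp3 is the transcription factor that maintains their gene program, and many genes that it raises encode surface proteins by which these cells are recognised or act on their neighbours. Rictor is the subunit that defines mTOR complex 2, a kinase complex that activates AKT and so restrains FOXO transcription factors.

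Values are CPM (reads of a gene scaled to a common library depth with TMM factors), as mean ± SD with n = 4 per group unless values of single libraries are given. A log2 ratio is the log2 fold change of the edgeR fit, with its standard error (SE). Libraries held 15769737 to 26114044 reads in genes. The T cell markers summed to 8557 to 9404 CPM in double-deficient, 8372 to 10109 CPM in Foxp3-deficient and 8474 to 8775 CPM in WT libraries. Epithelial markers, of interest because Epcam and Sdc4 are epithelial genes too, summed to at most 1.85 CPM in double-deficient, 1.45 CPM in Foxp3-deficient and 1.43 CPM in WT libraries. Macrophage markers, of interest for Axl, summed to at most 4.92 CPM in double-deficient, 4.17 CPM in Foxp3-deficient and 4.76 CPM in WT libraries. The marker lists of B cells, plasma cells and dendritic cells moved with the groups, and their part in the results was not tested. B cell markers summed to 777 to 949 CPM in double-deficient, 677 to 844 CPM in Foxp3-deficient and 1280 to 1513 CPM in WT libraries, most of it Ighm (852 ± 72.5 CPM in double-deficient, 733 ± 69.7 CPM in Foxp3-deficient and 1368 ± 96.7 CPM in WT libraries), while Ms4a1, Pax5 and Ebf1 averaged at most 0.39 CPM in any group. Of 7 B cell markers tested, 5 were called lower in Foxp3-deficient than in WT cells, and in double-deficient against Foxp3-deficient cells 2 were called higher and 1 lower. Cd79b, for example, averaged 15.8 CPM in double-deficient, 8.49 CPM in Foxp3-deficient and 21.3 CPM in WT cells. Plasma cell markers summed to 227 to 257 CPM in double-deficient, 178 to 218 CPM in Foxp3-deficient and 244 to 271 CPM in WT libraries, most of it Xbp1, with Mzb1 at no more than 0.07 CPM on average in any group. Of 4 tested, Jchain, Sdc1 and Prdm1 were called higher in double-deficient cells than in Foxp3-deficient cells, and Xbp1 and Prdm1 lower in Foxp3-deficient than in WT cells; Jchain averaged 11.6 CPM in double-deficient, 0.902 CPM in Foxp3-deficient and 1.27 CPM in WT cells. Dendritic cell markers summed to 199 to 260 CPM in double-deficient, 89.4 to 126 CPM in Foxp3-deficient and 114 to 128 CPM in WT libraries, nearly all from Ccr9, Cst3 and Bst2, with Itgax and Flt3 at no more than 0.14 CPM on average in any group. Cst3, Ccr9 and Bst2 were called higher in double-deficient cells than in Foxp3-deficient cells. Zbtb46 averaged 3.31 CPM in double-deficient, 2.19 CPM in Foxp3-deficient and 5.37 CPM in WT cells, and Xcr1 1.72 CPM in double-deficient, 1.38 CPM in Foxp3-deficient and 0.875 CPM in WT cells. Foxp3-deficient replicates 1 and 3 stood apart from the rest on principal components. Foxp3 itself was at 102 ± 13.7 CPM in double-deficient, 118 ± 22.8 CPM in Foxp3-deficient and 633 ± 75.8 CPM in WT cells, and Rictor at 141 ± 12.6 CPM in double-deficient, 189 ± 31.2 CPM in Foxp3-deficient and 148 ± 14.4 CPM in WT cells. Counts over the whole gene do not check a deletion of single Rictor exons. In bulk RNA, fewer cells with a transcript and less transcript per cell cannot be told apart.

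The promoters of these genes are shown first, since Foxp3 is a forkhead factor that binds DNA through sequences related to TGTTTAC. Of the 9 genes, 8 had an entry among RefSeq promoters on GRCm38.p6, and the 250 bases before each annotated start were searched on both strands. The letters TGTTTAC stood in 2 of the 8, Axl (229 to 223 bases before the start) and Swap70 (107 to 101 bases before it), and in 3.17% of all 32851 promoters of that length. The RUNX letters TGTGGT stood in 2 of the 8, Swap70 and Izumo1r, in both at 127 to 122 bases before the start on the opposite strand, and in 14.0% of all promoters. The AP-1 letters TGANTCA, the STAT letters TTCNNNGAA and the NFAT letters GGAAAA stood in 0 of the 8, and in 6.75%, 7.02% and 20.4% of all promoters. No motif searched overlapped another in these windows. A match describes the letters only and is not a measured binding site. Below are the sequences with the forkhead letters, Axl (chr7:25788734-25788983, minus strand) and Swap70 (chr7:110221453-110221702, plus strand). They are followed by 3 of those without them, Epcam (chr17:87635729-87635978, plus strand), Sdc4 (chr2:164443189-164443438, minus strand) and Gpr83 (chr9:14859960-14860209, plus strand). The Plagl1, Capg and Izumo1r promoters also lacked the letters. Whether the letters go with the levels of the genes was not tested. The Plagl1, Capg and Izumo1r windows overlapped 4, 4 and 3 annotated exons. The Plagl1, Capg and Sdc4 windows lay inside the annotated gene body. Which start these cells used was not tested. Capitals mark TGTTTAC.
Axl: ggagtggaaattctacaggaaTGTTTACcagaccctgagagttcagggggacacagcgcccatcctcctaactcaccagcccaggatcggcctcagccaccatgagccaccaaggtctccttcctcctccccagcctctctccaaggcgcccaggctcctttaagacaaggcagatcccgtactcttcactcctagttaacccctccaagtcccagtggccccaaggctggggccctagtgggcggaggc
Swap70: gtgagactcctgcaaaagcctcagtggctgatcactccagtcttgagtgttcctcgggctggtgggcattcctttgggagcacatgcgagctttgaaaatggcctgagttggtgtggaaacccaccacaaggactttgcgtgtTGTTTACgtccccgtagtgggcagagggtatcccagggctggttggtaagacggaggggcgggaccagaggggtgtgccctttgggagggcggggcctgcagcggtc
Epcam: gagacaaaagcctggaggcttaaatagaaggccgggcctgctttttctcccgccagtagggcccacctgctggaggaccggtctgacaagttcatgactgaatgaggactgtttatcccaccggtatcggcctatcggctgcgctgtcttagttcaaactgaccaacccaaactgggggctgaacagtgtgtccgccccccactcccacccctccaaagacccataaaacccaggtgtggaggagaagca
Sdc4: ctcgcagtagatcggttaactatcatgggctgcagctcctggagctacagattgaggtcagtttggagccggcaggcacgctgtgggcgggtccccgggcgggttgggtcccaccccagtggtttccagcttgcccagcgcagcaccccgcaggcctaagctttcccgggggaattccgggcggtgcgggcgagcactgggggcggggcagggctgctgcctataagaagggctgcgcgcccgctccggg
Gpr83: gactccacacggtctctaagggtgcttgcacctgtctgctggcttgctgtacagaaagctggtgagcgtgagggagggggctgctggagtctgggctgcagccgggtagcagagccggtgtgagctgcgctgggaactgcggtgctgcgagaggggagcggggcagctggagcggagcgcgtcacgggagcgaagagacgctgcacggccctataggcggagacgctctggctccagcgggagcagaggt

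All 9 genes had their highest Foxp3-deficient library below their lowest WT library. The share of all genes that lay apart in this way was not counted. Relative to WT, the mean in Foxp3-deficient cells lay between 9.46% for Sdc4 and 65.2% for Capg, and the median log2 fold change of the 9 was −1.54, against 0.00 over all genes tested. Over all genes, 6.74% were called lower in Foxp3-deficient than in WT cells (edgeR's quasi-likelihood test, Benjamini-Hochberg adjusted p under 0.05 over all 13196 genes). All 9 genes were in that share, which follows from how they were chosen.

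In cells that lacked Rictor as well as a working Foxp3, 6 of the 9 were called higher than in Foxp3-deficient cells. Gpr83, Izumo1r, Cd83, Sdc4, Epcam and Capg were called higher in double-deficient cells than in Foxp3-deficient cells, against 13.9% of all genes tested, and 0 of the 9 were called lower, against 13.3%. No further gene of the 9 passed at an unadjusted p under 0.05, and DESeq2 and limma-voom also called 6 higher and 0 lower. The median log2 fold change of the 9 was 0.92, against −0.02 over all genes. This comparison uses the Foxp3-deficient libraries that entered the choice of genes, so it is not independent of that choice. Choosing genes for low levels in those libraries favours a higher ratio here. Axl, Swap70 and Plagl1 did not pass. Without Foxp3-deficient replicates 1 and 3, an alternative chosen after seeing the data, the same 6 genes were called, and the log2 ratio was 1.89 for Epcam, 1.26 for Sdc4, 1.14 for Gpr83, 0.90 for Capg, 0.65 for Cd83 and 0.49 for Izumo1r. The levels are drawn by library for each gene.

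**Figure D1:**
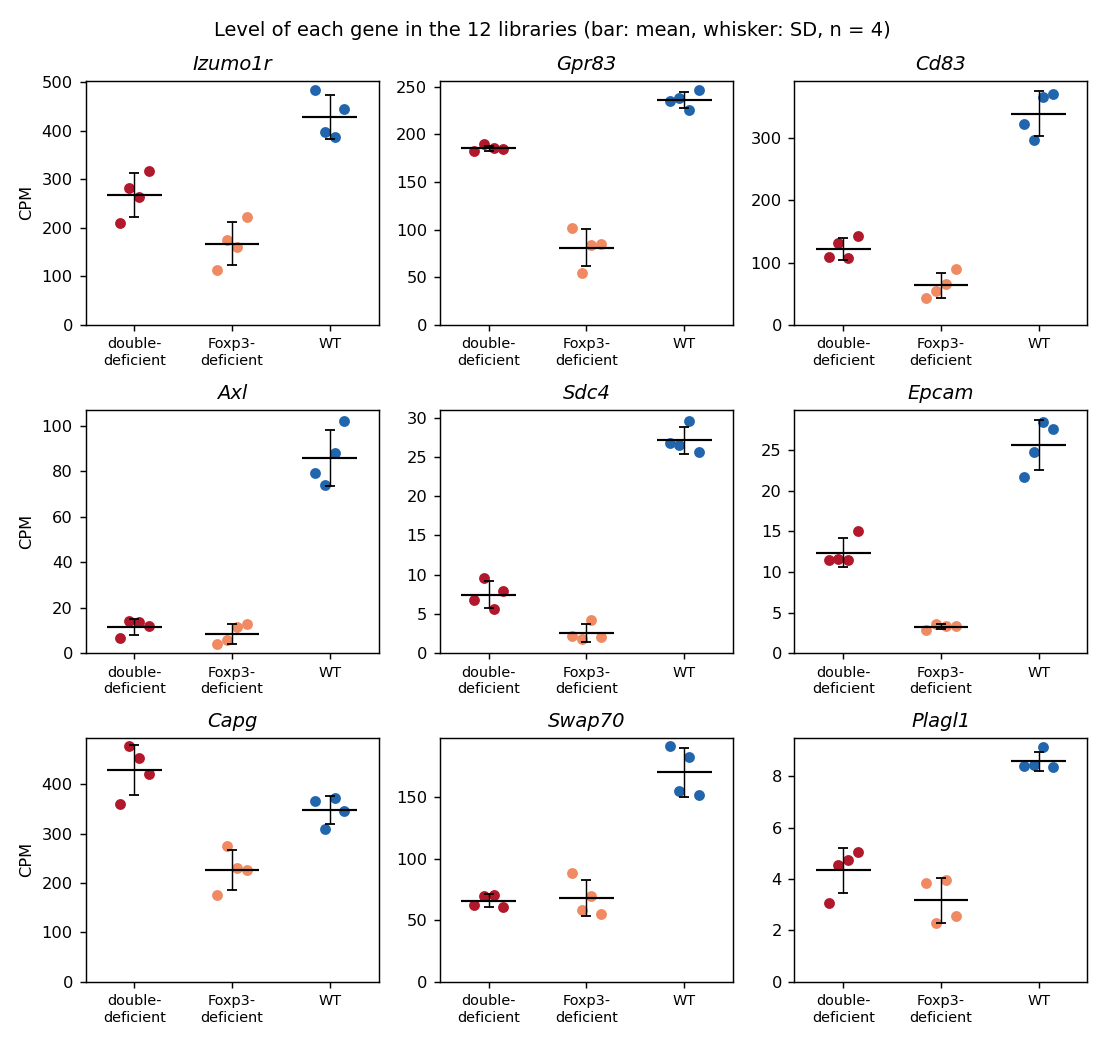
Level (CPM, linear axis from 0) of the 9 genes in each of the 12 libraries, by group, with bars for the mean and whiskers for the SD of 4 libraries. Every WT point lies above every Foxp3-deficient point, and Epcam, Sdc4, Gpr83, Cd83 and Capg have every double-deficient point above every Foxp3-deficient point.

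Gpr83 is a G protein-coupled receptor that marks Treg cells in mice (ENSMUSG00000031932.14, chromosome 9, 14860210 to 14870789, plus strand, GRCm38). It stood at 183, 189, 185 and 184 CPM in double-deficient libraries, 101, 54.7, 83.9 and 84.8 CPM in Foxp3-deficient libraries and 235, 238, 225 and 246 CPM in WT libraries. None of the 3 groups overlapped another, and the double-deficient libraries lay within a span of 183 to 189 CPM. The mean was 186 ± 2.77 CPM in double-deficient and 81.1 ± 19.3 CPM in Foxp3-deficient cells, 2.28-fold higher in the double-deficient ones (log2 ratio 1.19, SE 0.13, edgeR adjusted p = 3.24e-05). Against a WT mean of 236 ± 8.81 CPM, the double-deficient cells reached 78.5% (log2 ratio −0.35, SE 0.13) and the Foxp3-deficient cells 34.4% (log2 ratio −1.54, SE 0.13).

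Izumo1r encodes folate receptor 4, a GPI-anchored surface protein that is also the egg's receptor for sperm IZUMO1 (ENSMUSG00000031933.17, chromosome 9, 14885814 to 14903949, minus strand). Its body lies 15.03 kb from that of Gpr83, and both genes are transcribed toward each other. It had 209, 282, 263 and 316 CPM in double-deficient libraries, 113, 175, 159 and 222 CPM in Foxp3-deficient libraries and 483, 398, 386 and 444 CPM in WT libraries. The deficient groups overlapped, through Foxp3-deficient replicate 5 and double-deficient replicate 2, while both lay under all WT libraries. Double-deficient cells averaged 268 ± 45.0 CPM and Foxp3-deficient cells 167 ± 44.9 CPM (log2 ratio 0.68, SE 0.17, edgeR adjusted p = 0.00999). The share of the WT level was 62.6% in double-deficient and 39.1% in Foxp3-deficient cells.

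Axl is a receptor tyrosine kinase of the TAM family, which binds GAS6 and helps cells take up dying cells and damp inflammation (ENSMUSG00000002602.16, chromosome 7, 25757273 to 25788705, minus strand). It had 6.63, 14.3, 13.8 and 12.1 CPM in double-deficient libraries, 4.17, 5.71, 11.4 and 12.96 CPM in Foxp3-deficient libraries and 79.3, 73.8, 88.1 and 102 CPM in WT libraries. Both deficient groups lay far under WT and overlapped each other. Within the Foxp3-deficient group, replicates 1 and 3 were the low ones. The difference between double-deficient (11.7 ± 3.503 CPM) and Foxp3-deficient cells (8.56 ± 4.28 CPM) did not pass (log2 ratio 0.44, SE 0.32, 95% interval of the fold 0.843 to 2.18, edgeR adjusted p = 0.322), and was −0.06 on the log2 scale without Foxp3-deficient replicates 1 and 3. Relative to WT (85.8 ± 12.4 CPM), 13.6% of the level was found in double-deficient and 9.98% in Foxp3-deficient cells (log2 ratio −3.31, SE 0.33).

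Cd83 encodes an immunoglobulin-family surface protein best known from mature dendritic cells, also present on activated lymphocytes, that keeps MHC class II and CD86 at the surface by opposing the ubiquitin ligase MARCH1 (ENSMUSG00000015396.4, chromosome 13, 43784775 to 43803132, plus strand). It stood at 108, 131, 107 and 143 CPM in double-deficient libraries, 42.7, 54.7, 65.4 and 90.4 CPM in Foxp3-deficient libraries and 323, 297, 366 and 372 CPM in WT libraries. Every double-deficient library was above every Foxp3-deficient one and below every WT one. The level was 1.93-fold higher in double-deficient (122 ± 17.5 CPM) than in Foxp3-deficient cells (63.3 ± 20.3 CPM; log2 ratio 0.95, SE 0.18, edgeR adjusted p = 0.00242), and amounted to 36.0% of WT in the double-deficient and 18.6% in the Foxp3-deficient group. The dendritic cell marker sum was also higher in double-deficient libraries than in Foxp3-deficient libraries, as given above, and its part in the result was not tested. The B cell marker sum was also lower in both deficient groups than in WT libraries, and its part was not tested either.

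Sdc4 encodes syndecan-4, a heparan sulfate-bearing coreceptor at focal adhesions (ENSMUSG00000017009.3, chromosome 2, 164424247 to 164443887, minus strand). It had 6.78, 9.55, 5.67 and 7.93 CPM in double-deficient libraries, 2.17, 1.78, 4.29 and 2.04 CPM in Foxp3-deficient libraries and 26.7, 26.5, 29.6 and 25.7 CPM in WT libraries. The groups did not overlap, and Foxp3-deficient replicate 4 was the high library of its group. The smallest count behind these values was 29 reads. In double-deficient cells the mean was 7.48 ± 1.66 CPM and in Foxp3-deficient cells 2.57 ± 1.16 CPM, a 2.90-fold difference (log2 ratio 1.54, SE 0.24, edgeR adjusted p = 0.000736). Double-deficient cells held 27.6% and Foxp3-deficient cells 9.46% of the WT level, the lowest share of the 9.

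Epcam encodes a homophilic adhesion protein of epithelia (ENSMUSG00000045394.9, chromosome 17, 87635979 to 87651129, plus strand). It stood at 11.4, 11.6, 11.4 and 15.05 CPM in double-deficient libraries, 2.87, 3.56, 3.36 and 3.29 CPM in Foxp3-deficient libraries and 21.6, 24.7, 28.4 and 27.6 CPM in WT libraries. All 3 groups were apart from each other, and double-deficient replicate 5 was above its fellows. Of the 9 genes it had the largest ratio of double-deficient (12.4 ± 1.78 CPM) to Foxp3-deficient cells (3.27 ± 0.29 CPM), 3.78-fold (log2 ratio 1.92, SE 0.15, edgeR adjusted p = 1.89e-06). Relative to WT, 48.4% of the level was present in double-deficient and 12.8% in Foxp3-deficient cells. The 4 genes of the epithelial list, Cdh1, Cldn4, Cldn7 and Krt18, summed to at most 1.85 CPM in any library.

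**Figure D2:**
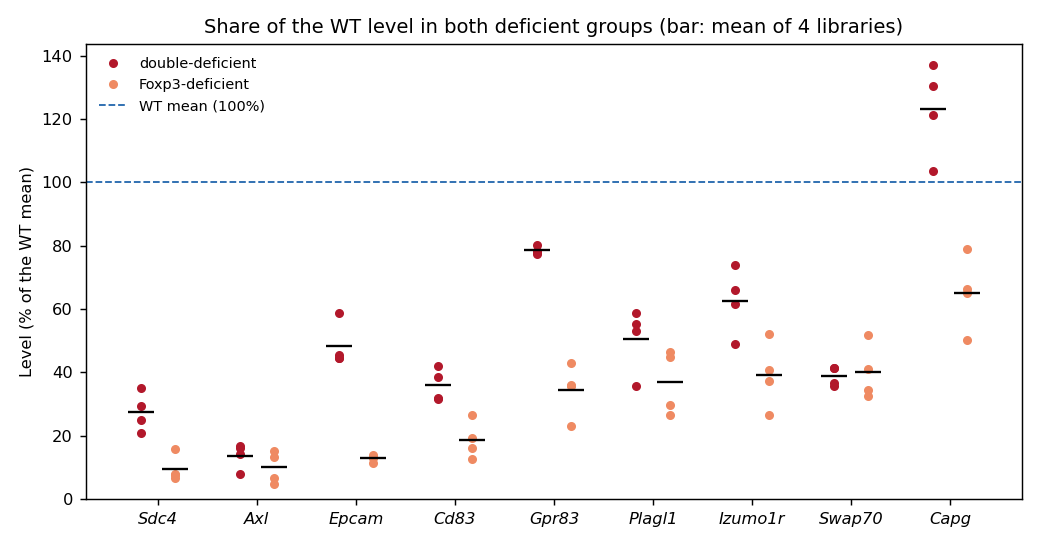
Level of each gene in double-deficient and Foxp3-deficient libraries as a percentage of its WT mean, with a bar for the mean of 4 libraries and a dashed line at the WT mean. Capg is the gene whose double-deficient mean, 123%, passes the WT line, and Sdc4, Axl, Epcam and Cd83 have Foxp3-deficient means under 20%.

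Capg encodes a gelsolin-family protein that caps the barbed ends of actin filaments inside the cell (ENSMUSG00000056737.14, chromosome 6, 72544391 to 72562983, plus strand). It had 361, 477, 453 and 421 CPM in double-deficient libraries, 175, 274, 231 and 226 CPM in Foxp3-deficient libraries and 365, 309, 372 and 345 CPM in WT libraries. It was the one gene of the 9 whose double-deficient libraries overlapped WT: 3 of 4 were above every WT library and replicate 2 was inside the WT span. The level was 1.89-fold higher in double-deficient (428 ± 50.3 CPM) than in Foxp3-deficient cells (227 ± 40.5 CPM; log2 ratio 0.92, SE 0.12, edgeR adjusted p = 0.000182). With 65.2% of WT, its decrease in Foxp3-deficient cells was the smallest of the 9 (log2 ratio −0.62, SE 0.12).

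Swap70 encodes a phosphoinositide-binding protein that works with RAC in actin remodelling (ENSMUSG00000031015.8, chromosome 7, 110221711 to 110283506, plus strand). It had 62.5, 70.1, 70.5 and 60.7 CPM in double-deficient libraries, 88.2, 58.4, 69.8 and 55.4 CPM in Foxp3-deficient libraries and 191, 155, 182 and 152 CPM in WT libraries. The deficient groups overlapped throughout, and both were below every WT library. The difference between double-deficient (66.0 ± 5.11 CPM) and Foxp3-deficient cells (68.0 ± 14.9 CPM) did not pass, with a 95% interval of the fold of 0.801 to 1.18 (log2 ratio −0.04, SE 0.13, edgeR adjusted p = 0.83). The share of WT was 38.8% in double-deficient and 39.9% in Foxp3-deficient cells. As given above, the B cell marker sum was also lower in both deficient groups than in WT libraries, and its part was not tested. An antisense gene model, Gm45515, overlaps the Swap70 body, and since the strand setting of the counting is not given in the sources used here, reads of the pair cannot be told apart.

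Plagl1 (also called Zac1) encodes a zinc finger transcription factor from an imprinted gene that slows proliferation (ENSMUSG00000019817.18, chromosome 10, 13060504 to 13131694, plus strand). It was the gene with the lowest level per kilobase of the 9, with 3.07, 4.55, 4.73 and 5.03 CPM in double-deficient libraries, 3.84, 2.27, 3.98 and 2.56 CPM in Foxp3-deficient libraries and 8.40, 8.43, 9.14 and 8.34 CPM in WT libraries. Double-deficient replicate 2 lay inside the Foxp3-deficient span, and its 3 fellows lay above that span. The difference between double-deficient (4.35 ± 0.874 CPM) and Foxp3-deficient cells (3.16 ± 0.874 CPM) did not pass (log2 ratio 0.46, SE 0.23, 95% interval of the fold 0.985 to 1.91, edgeR adjusted p = 0.142). It did pass once the trend of each library with transcript length and GC content was removed, an alternative chosen after seeing the data (log2 ratio 0.68, edgeR adjusted p = 0.0365). Double-deficient cells were at 50.7% and Foxp3-deficient cells at 36.9% of WT. A short RNA gene model on the opposite strand, Gm27741, lies within the Plagl1 body.

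**Figure D3:**
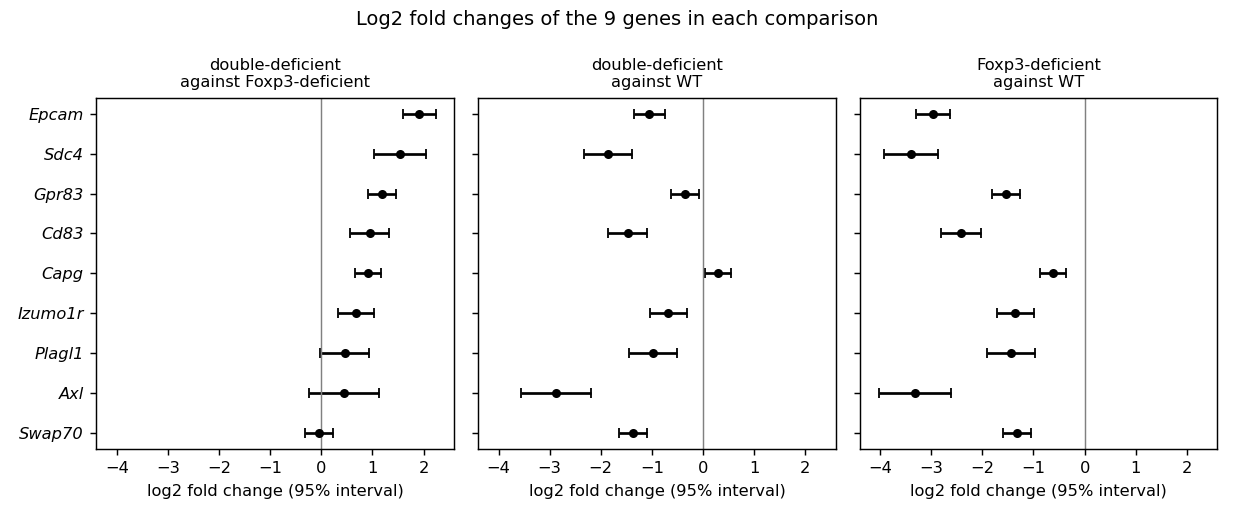
Log2 fold change of the 9 genes with 95% intervals from the edgeR fit (n = 4 per group), in double-deficient against Foxp3-deficient, double-deficient against WT and Foxp3-deficient against WT cells. In the first panel the intervals of Epcam, Sdc4, Gpr83, Cd83, Capg and Izumo1r lie above 0, and those of Plagl1, Axl and Swap70 include 0; in the last panel all 9 lie below 0.

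Against WT, 8 of the 9 genes had a lower mean in double-deficient cells, from 13.6% of the WT level for Axl to 78.5% for Gpr83. These 8 were also called lower, where 16.8% of all genes were called lower and 32.6% called in either direction, and the median log2 fold change of the 9 was −1.05, against −0.03 over all genes. Nothing is read from that count, since the WT libraries entered the choice. Capg was not called (log2 ratio 0.30, SE 0.12).

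Per kilobase of exon, the scale on which genes can be compared, WT levels ran between 1.10 CPM per kb for Plagl1 and 184 CPM per kb for Izumo1r. Capg was the highest in both deficient groups, at 169 CPM per kb in double-deficient, 89.6 in Foxp3-deficient and 137 in WT cells. Izumo1r, the highest in WT cells, was at 115 CPM per kb in double-deficient, 72.1 in Foxp3-deficient and 184 in WT cells. Cd83 had 47.6 CPM per kb in double-deficient, 24.6 in Foxp3-deficient and 132 in WT cells, and Gpr83 had 36.4 CPM per kb in double-deficient, 15.9 in Foxp3-deficient and 46.4 in WT cells. In WT cells Izumo1r (SD 19.3) lay above Capg (SD 11.1), while Capg and Cd83 (SD 13.9) were within each other's SD. Swap70 was at 8.15 CPM per kb in double-deficient, 8.40 in Foxp3-deficient and 21.0 in WT cells. The level of Axl was 2.33 CPM per kb in double-deficient, 1.70 in Foxp3-deficient and 17.1 in WT cells. Among the adhesion genes, Epcam had 5.64 CPM per kb in double-deficient, 1.49 in Foxp3-deficient and 11.7 in WT cells, and Sdc4 2.94 CPM per kb in double-deficient, 1.01 in Foxp3-deficient and 10.7 in WT cells. Epcam (SD 1.41) and Sdc4 (SD 0.674) differed by less than the SD of Epcam in WT cells. Plagl1 was last, at 0.556 CPM per kb in double-deficient, 0.404 in Foxp3-deficient and 1.10 in WT cells.

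Short transcripts as a whole read higher in double-deficient libraries. Over 13076 genes with an exonic length, the median of the double-deficient to Foxp3-deficient log2 ratio was 0.25 in the shortest of 5 classes and −0.22 in the longest. The 6 genes that passed have exonic lengths of 2195 bases (Epcam) to 5095 bases (Gpr83), and Swap70, Plagl1 and Axl have 8090, 7819 and 5033 bases. With the trend removed, the log2 fold change was 1.80 for Epcam, 1.46 for Sdc4, 1.29 for Gpr83, 0.88 for Cd83, 0.86 for Capg and 0.58 for Izumo1r, and all 6 still passed. Axl was at 0.52 and Swap70 at 0.07, and neither passed.

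The genes also differed in how they varied among libraries of the same group. In Foxp3-deficient cells, replicate 1 had the lowest Izumo1r, Cd83, Axl, Capg and Epcam and the highest Gpr83 and Swap70 of its group. Replicate 5 had the highest Izumo1r, Cd83 and Axl. Izumo1r, Cd83 and Axl thus shared their low and high libraries there, while Epcam varied least for its level, between 2.87 and 3.56 CPM. The standardized levels show the same by library. Of the genes lowest in replicate 1, Izumo1r, Cd83, Capg and Epcam have exonic lengths of 2195 to 2572 bases, and Axl has 5033. The genes highest in replicate 1, Gpr83 and Swap70, have 5095 and 8090 bases. The part of transcript length in this was not tested.

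**Figure D4:**
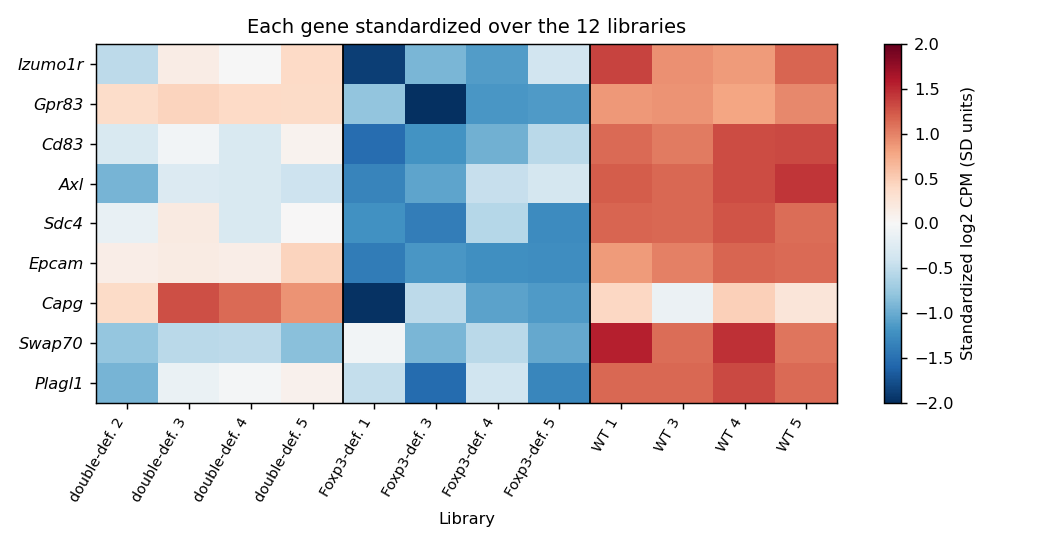
Log2 CPM of each gene standardized over the 12 libraries (colour, SD units from −2 to 2), with libraries grouped as double-deficient, Foxp3-deficient and WT. WT libraries are the highest for 8 of the 9 genes, and Capg is highest in double-deficient replicates 3, 4 and 5.

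The genes outside the set whose log2 CPM ran closest to the mean standardized profile of the 9 were taken by Pearson's r over the 12 libraries. Unnamed gene models, microRNAs and antigen receptor segments were left out of this ranking. This likeness is a description, since the 12 points fall into the same 3 groups for every gene. Tnfrsf4, the costimulatory receptor OX40, came first with r = 0.99 (168 ± 25.9 CPM in double-deficient, 101 ± 14.2 CPM in Foxp3-deficient and 354 ± 34.8 CPM in WT cells). St14, the membrane serine protease matriptase, followed with r = 0.98 (13.7 ± 1.01 CPM in double-deficient, 5.92 ± 1.005 CPM in Foxp3-deficient and 24.8 ± 3.77 CPM in WT cells), then Nrp1, a semaphorin and VEGF coreceptor of thymic Treg cells, also with r = 0.98 (255 ± 8.75 CPM in double-deficient, 133 ± 35.0 CPM in Foxp3-deficient and 444 ± 27.0 CPM in WT cells), and Ebi3, a subunit of IL-35 and IL-27, with r = 0.98 (5.24 ± 1.31 CPM in double-deficient, 2.28 ± 0.961 CPM in Foxp3-deficient and 14.5 ± 0.511 CPM in WT cells). The next were Ephx4 and Apobec3 with 0.97 each, Psen2 with 0.97, and Serpinc1, Prnp and Scamp1 with 0.96 each. Among the 9, Sdc4 ran closest to the common profile, with r = 0.98, and Capg farthest, with 0.63. Foxp3 itself reached 0.80.

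Other genes of the Treg signature were read beside the 9, on a list of 32 that leaves them out. Of these, 27 fell and 1 (Socs2) rose in Foxp3-deficient against WT cells, with a median log2 fold change of −1.79, by edgeR's test. Over all genes tested that median was 0.00, and 6.99% rose and 6.74% fell. Some were listed because earlier results of these data were known, so the count is no independent evidence of its direction. Cd74, the MHC class II invariant chain, fell (log2 ratio −3.16, SE 0.16, edgeR adjusted p = 4.12e-09), with 14.7 ± 1.41 CPM in double-deficient, 11.3 ± 2.79 CPM in Foxp3-deficient and 101 ± 9.28 CPM in WT cells. Tnfrsf9, the costimulatory receptor 4-1BB, fell as well (log2 ratio −1.99, SE 0.10, edgeR adjusted p = 4.54e-09). Fgl2, a secreted suppressor protein, fell in Foxp3-deficient cells (log2 ratio −2.72, SE 0.18, edgeR adjusted p = 4.08e-08) and was far higher in double-deficient cells than in Foxp3-deficient cells (log2 ratio 3.72, SE 0.18, edgeR adjusted p = 8.69e-09), with 107 ± 19.99 CPM in double-deficient, 8.02 ± 1.57 CPM in Foxp3-deficient and 53.3 ± 9.64 CPM in WT cells. In double-deficient against Foxp3-deficient cells, 15 of the 32 were called higher (median log2 fold change of the list 0.49), against 13.9% of all genes, and 0 lower, against 13.3%, where 2 were lower at an unadjusted p under 0.05 and DESeq2 and limma-voom also called 0 lower. The Foxp3-deficient libraries enter this comparison as well, so the caution about the choice of the list holds for these counts too. Without Foxp3-deficient replicate 3, 3 of the 32 were called lower. The number was 1 without replicate 5 of that group and 2 without replicates 1 and 3 together.

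Genes that work with the surface receptors were read by list, where 13.7% of all genes tested were called in either direction in Foxp3-deficient against WT cells. Of the TAM family, Mertk and Gas6 had too few reads to be tested, and of the 2 that were tested (median −0.27 on the log2 scale) the ligand Pros1 fell in Foxp3-deficient cells (log2 ratio −0.72, SE 0.13, edgeR adjusted p = 0.00122), with 18.9 ± 2.12 CPM in double-deficient, 20.1 ± 2.499 CPM in Foxp3-deficient and 33.1 ± 3.78 CPM in WT cells. Among 11 other lymphocyte G protein-coupled receptors and related genes, 5 rose and 2 fell in Foxp3-deficient against WT cells, with a median log2 fold change of −0.21. Gpr171 rose (log2 ratio 0.75, SE 0.09, edgeR adjusted p = 3.61e-05), as did the oxysterol receptor Gpr183 (log2 ratio 0.56, SE 0.08, edgeR adjusted p = 0.000167) and the sphingosine-1-phosphate receptor S1pr1 (log2 ratio 0.58, SE 0.11, edgeR adjusted p = 0.0019), while the lysophosphatidylserine receptor Gpr174 fell (log2 ratio −0.59, SE 0.09, edgeR adjusted p = 0.000363). Gpr183 was lower in double-deficient cells than in Foxp3-deficient cells (log2 ratio −0.65, SE 0.08, edgeR adjusted p = 0.000127), opposite to Gpr83. Of 11 genes of folate uptake and metabolism, 0 passed in either direction in Foxp3-deficient against WT cells with edgeR, DESeq2 or limma-voom, and 1 was higher at an unadjusted p under 0.05 (median log2 fold change 0.04). Without Foxp3-deficient replicate 1, 1 of them was called lower. Shmt2, the most abundant of them, had 113 ± 3.91 CPM in double-deficient, 98.6 ± 5.15 CPM in Foxp3-deficient and 95.7 ± 3.95 CPM in WT cells (log2 ratio 0.04, SE 0.07, edgeR adjusted p = 0.765).

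Several genes linked to Cd83 or Epcam by family or function fell, where 6.74% of all genes tested fell and 6.99% rose. Of 7 antigen presentation genes tested (median log2 fold change −0.70), 3 fell and 0 rose in Foxp3-deficient against WT cells, also by DESeq2, limma-voom and an unadjusted p under 0.05: Cd74 as above, Cd86 (log2 ratio −0.98, SE 0.15, edgeR adjusted p = 0.000323) and Cd80 (log2 ratio −2.86, SE 0.53, edgeR adjusted p = 0.00138), the last resting on 4 to 10 reads per Foxp3-deficient library. Cd86 had 31.8 ± 5.21 CPM in double-deficient, 26.8 ± 6.14 CPM in Foxp3-deficient and 53.0 ± 4.21 CPM in WT cells. B cells express these 3 genes too, and the B cell marker sum was also lower in Foxp3-deficient than in WT libraries, as given above; its part was not tested. Of 10 genes of EpCAM cleavage, complexes and junctions (median log2 fold change −0.20), 3 fell and 1 rose. The 3 were St14 (log2 ratio −2.06, SE 0.16, edgeR adjusted p = 2.81e-07), the gamma-secretase subunit Psen2 (log2 ratio −0.54, SE 0.08, edgeR adjusted p = 0.000181) and the protease inhibitor Spint1 (log2 ratio −3.46, SE 0.67, edgeR adjusted p = 0.00199). Spint1 had 0 to 6 reads per Foxp3-deficient library, and its log2 fold change was −4.77 without replicate 5 of that group. The tetraspanin Cd9 rose (log2 ratio 0.41, SE 0.12, edgeR adjusted p = 0.0272), a call that was lost under 6 of the other settings, among them leaving out WT replicates 1 or 4 or Foxp3-deficient replicates 3, 4 or 5. St14 and Epcam had the same order of groups, and St14 was higher in double-deficient cells than in Foxp3-deficient cells (log2 ratio 1.205, SE 0.16, edgeR adjusted p = 0.000167).

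The remaining lists are read against the same shares of all genes tested, 6.99% that rose and 6.74% that fell. With lists this short, a count of 1 or 2 is not read as a result about the list. Of 17 genes of syndecans and heparan sulfate synthesis, 2 rose and 0 fell in Foxp3-deficient against WT cells, with 5 higher and 0 lower at an unadjusted p under 0.05, 5 and 0 by DESeq2, and 2 and 0 by limma-voom. Their median log2 fold change was 0.16, and 4 rose without Foxp3-deficient replicate 3. The 2 were Xylt2, which starts the sugar chain (log2 ratio 0.98, SE 0.10, edgeR adjusted p = 4.94e-06), and the sulfotransferase Hs3st3b1 (log2 ratio 1.64, SE 0.23, edgeR adjusted p = 0.000112), both opposite in direction to Sdc4. Of 13 actin capping and severing genes, Scin, the gelsolin relative scinderin, fell (log2 ratio −2.39, SE 0.42, edgeR adjusted p = 0.000841) at about 1 to 5 CPM, and 0 rose, where 4 were higher at an unadjusted p under 0.05, DESeq2 called 1 and limma-voom 0 (median log2 fold change of the list 0.07). Without Foxp3-deficient replicate 1 or 3, 2 of the 13 rose, and without WT replicate 4, 1 did; a further gene fell without WT replicate 5 or Foxp3-deficient replicate 1. Of 13 genes around SWAP-70, RAC and their exchange factors (median log2 fold change 0.10), 2 rose and 3 fell. Only 1 rose when WT replicate 1, 3 or 5 or Foxp3-deficient replicate 1 or 4 was left out. Def6, the closest relative of Swap70, rose (log2 ratio 0.34, SE 0.08, edgeR adjusted p = 0.0109), with 365 ± 17.6 CPM in double-deficient, 419 ± 33.1 CPM in Foxp3-deficient and 331 ± 32.4 CPM in WT cells, while the exchange factors Vav2 (log2 ratio −1.03, SE 0.12, edgeR adjusted p = 2.88e-05), Tiam1 (log2 ratio −0.56, SE 0.12, edgeR adjusted p = 0.00489) and Vav3 (log2 ratio −0.46, SE 0.12, edgeR adjusted p = 0.0148) fell, the last not without WT replicate 4. Among 6 tested genes of the PLAG family and imprinted growth network, 0 passed in either direction with edgeR, DESeq2 or limma-voom, and 1 was lower at an unadjusted p under 0.05 (median log2 fold change −0.15). By adjusted p, 1 was called lower without Foxp3-deficient replicate 3. Igf2r was the most abundant of them (log2 ratio −0.02, SE 0.11, edgeR adjusted p = 0.943).

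Genes next to the 9 on the chromosome were tested as well, 25 protein-coding genes with bodies within 100 kb. None of the 25 is a neighbour of Cd83 or Epcam, so they describe the surroundings of the other genes only. In Foxp3-deficient against WT cells, 3 rose and 1 fell, against 6.99% and 6.74% of all genes tested, and their median log2 fold change was −0.06. Cyp2s1, a cytochrome P450 gene 13.77 kb from Axl, rose (log2 ratio 1.86, SE 0.18, edgeR adjusted p = 2.94e-06), with 15.8 ± 3.35 CPM in double-deficient, 19.01 ± 2.74 CPM in Foxp3-deficient and 5.23 ± 0.721 CPM in WT cells, so that it moved opposite to Axl. Slpi, a secreted protease inhibitor gene 35.15 kb from Sdc4, rose (log2 ratio 2.89, SE 0.54, edgeR adjusted p = 0.00157) on very few reads, 65 in all Foxp3-deficient and 9 in all WT libraries. Tgoln1, 45.45 kb from Capg, rose slightly (log2 ratio 0.29, SE 0.09, edgeR adjusted p = 0.0444). Stx11, a syntaxin of granule release 96.21 kb from Plagl1, fell (log2 ratio −0.63, SE 0.18, edgeR adjusted p = 0.0276). The call of Tgoln1 was lost under 10 of the other settings, among them leaving out WT replicate 1, 3 or 4 or Foxp3-deficient replicate 3 or 5, where the log2 ratio was at least 0.20. That of Stx11 was lost under 7, among them leaving out WT replicate 4 or 5 or Foxp3-deficient replicate 1, 3 or 4, where the log2 ratio was −0.60 to −0.54.

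**Figure D5:**
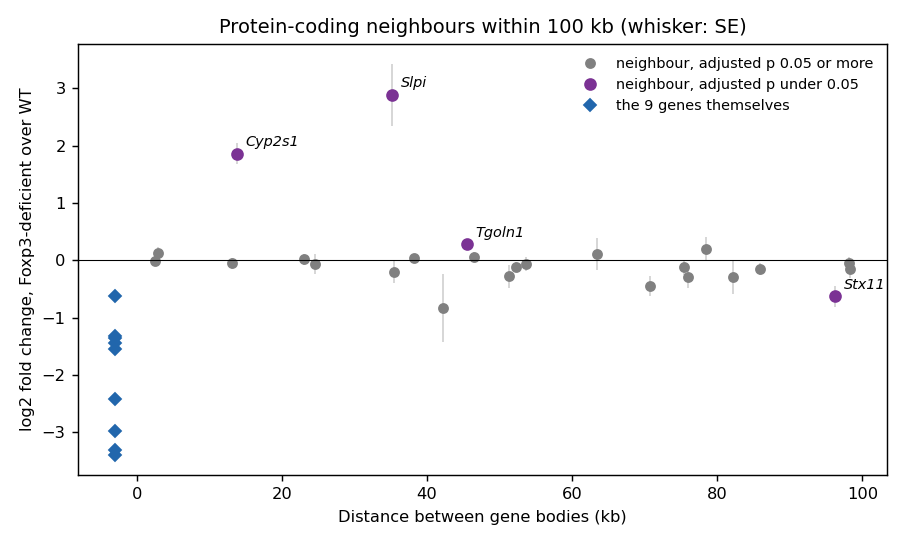
Log2 fold change of Foxp3-deficient over WT cells (whiskers: SE, n = 4 per group) of protein-coding neighbours against the distance between gene bodies in kb, with the 9 genes themselves as diamonds left of 0 kb. The 9 lie between −3.40 and −0.62, and the neighbours, apart from Cyp2s1 and Slpi, within 1 log2 unit of 0. No neighbour of Cd83 or Epcam is drawn.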

How the data were processed

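RNA-seq libraries from 12 sorted Treg cell samples were used, 4 per genotype, grouped by the genotype in the labels and numbered as there. The authors deposited raw counts of reads per gene. STAR 2.5.1b on mm10 (GRCm38) made the alignments and HTSeq the counts, per the submitters' processing notes. For HTSeq, neither version nor strand setting is given in the sources used here. After SMART-Seq v4 cDNA synthesis, the labels name 2 different kits for the library. HTSeq's summary counts were left out of library sizes. Reads outside genes made up 4.63% to 5.47% of each double-deficient, 6.22% to 9.27% of each Foxp3-deficient and 7.52% to 8.75% of each WT library. Reads without a unique alignment made up 31.1% to 33.1% of each double-deficient, 23.0% to 29.5% of each Foxp3-deficient and 25.9% to 28.5% of each WT library. The part of these differences in the results was not tested.

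The counts were filtered with filterByExpr (13196 of 25189 genes kept), TMM-scaled and modelled in edgeR 4.0.16 under R 4.3.3 (robust quasi-likelihood F test, 1 fit over 12 libraries, Benjamini-Hochberg adjustment, called under 0.05). The biological coefficient of variation was 17.4%. The procedure was tested on simulated data. Positions and exonic lengths came from GENCODE M21 (97.6% of genes matched), and promoter sequences from RefSeq on GRCm38.p6. Alternatives were other scalings and filters, DESeq2 1.42.0, limma-voom 3.58.1, the 2 groups alone, a replicate block, leaving out each library and, chosen after seeing the data, removal of length and GC trends and of Foxp3-deficient replicates 1 and 3 together.

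The 9 genes and all gene lists were chosen with earlier results of these data known. Named beside the 9 were Foxp3, Rictor, from each list the 4 called genes at most that had the smallest adjusted p in Foxp3-deficient against WT cells (with none called, the most abundant), the called neighbours within 100 kb and the 10 most alike genes. One neighbouring gene is not reported here. Socs2, Mertk, Gas6 and the single cell type markers named were chosen after their values were seen.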

Additional observations from a re-analysis of the deposited data

Results flagged for a closer look

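In 3 of the 27 combinations of gene and group, 1 of the 4 libraries lay far from the other 3, where chance gives about 1 in 20. Plagl1 was at 9.14 CPM in WT replicate 4, and at 8.34 to 8.43 CPM in the other WT libraries. Sdc4 was at 4.29 CPM in Foxp3-deficient replicate 4, and at 1.78 to 2.17 CPM in the others of that group. Epcam was at 15.05 CPM in double-deficient replicate 5, and at 11.4 to 11.6 CPM in the others of that group.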

How the results depend on the processing

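In double-deficient against Foxp3-deficient cells, the number of the 9 genes called higher was 5 to 7 over 19 other settings, 6 whenever 1 library was left out, and the number called lower was 0 throughout. The median log2 fold change of the 9 was −1.66 to −1.39 in Foxp3-deficient against WT cells over 19 settings and −1.18 to −0.997 in double-deficient against WT cells over 18. No called difference changed sign. Some differences that were not called did: Swap70 in double-deficient against Foxp3-deficient cells ran from −0.12 to 0.23 on the log2 scale, Axl from −0.06 to 0.72, and Igf2r in Foxp3-deficient against WT cells from −0.11 to 0.08. Same-numbered libraries correlated at 0.157, 0.102, 0.0289 and 0.203 in Foxp3-deficient and WT cells and at −0.0434, −0.0247 and 0.0622 in double-deficient and Foxp3-deficient cells, so not every pair passed 0.1. Libraries of different numbers were not correlated, so the 0.1 mark has no baseline and cannot decide whether samples were paired. Whether Foxp3-deficient and WT libraries of one number came from one mouse is not stated, and the numbers were not taken as pairs. The main fit would ignore such a pairing. The replicate block was fitted to the 2 groups compared alone, with only the replicate numbers that both groups have. For double-deficient against Foxp3-deficient cells these were 3, 4 and 5, so that fit also rests on fewer libraries. With the block, 5 of the 9 were called higher there. For Sdc4 the log2 ratio was 1.57 (edgeR adjusted p = 0.0620; adjusted p = 0.0959 with length and GC trends removed too). Over all genes, 704 were called higher and 512 lower in double-deficient against Foxp3-deficient cells, where the fit of all 12 libraries without it called 1834 and 1751. The block with length and GC trends removed gave 324 and 106, with 8 and not 15 of the 32 other Treg signature genes called higher. The 2 groups alone gave 1205 higher. Leaving out 1 library gave 1114 to 2283 higher, 1114 without double-deficient replicate 5, and 1039 to 2147 lower, 1039 without that replicate and 1148 without double-deficient replicate 3. In Foxp3-deficient against WT cells the block gave 779 higher and 882 lower over all genes, and the fit without it 923 and 889. Among the neighbours in Foxp3-deficient against WT cells, 1 and not 3 rose with a stricter low-count filter or the 2 groups alone (2 to 3 with 1 library left out), and 0 and not 1 fell with no filter or without Foxp3-deficient replicates 1 and 3 together (0 to 2 with 1 library left out). The cause of these shifts was not tested. Among the genes named, read numbers were low for Spint1, Slpi, Cd80, Scin and Ephx4, among others. Of the 9, Sdc4 had 29 to 83, Plagl1 37 to 77 and Epcam 53 to 76 reads per Foxp3-deficient library. Intervals cover the spread between libraries only.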
